A study of Mus musculus with 18 samples.

Results

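The complement system was followed in mouse liver through 33 genes for its components and regulators, picked by name and role from the 37315 genes of a count table. All 33 were found by symbol, and all 33 passed the filter on low counts that left 16213 genes for testing. By role they comprise 7 genes of the classical pathway, 5 of the lectin pathway, 4 of the alternative pathway and central step, 7 of the terminal pathway, 6 soluble regulators, 2 membrane regulators and 2 receptors for the released peptides. Polyadenylated RNA was sequenced from livers of C57BL/6J mice given L-asparaginase (Elspar), the enzyme drug that depletes asparagine from the blood and is used against leukaemia. The drug was injected into the peritoneum once a day at 3 IU per g of body weight, and control mice received an equal volume of phosphate buffered saline (PBS). Liver was taken 7.5 h after the last injection. The 6 groups, each of 3 libraries, were asparaginase and PBS mice at 2 weeks of age after 7 injections, at 8 weeks after 8 injections and at 16 weeks after 7 injections. By their labels the asparaginase groups held 1 male and 2 females at 2 weeks and 2 males and 1 female at 8 and at 16 weeks, and the PBS groups held 2 males and 1 female at 2 weeks and 1 male and 2 females at 8 and at 16 weeks. Treatment was therefore not balanced over sex at any age, and the tests carried a term for sex within each age. The 8-week libraries also belong to another series, and libraries of the 3 ages were made and sequenced together. A replicate number says only in which order a library was deposited and pairs no mice. Each p-value sets a difference against the spread between libraries, which was estimated from all 18 in one fit.

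Complement is a cascade of blood proteins, most of them secreted by hepatocytes. The classical pathway starts when C1q binds antibody or other surfaces, the lectin pathway when mannose-binding lectins or ficolins bind microbial sugars, and the alternative pathway runs continuously and amplifies the others; all 3 cut C3. The terminal pathway then cuts C5 and joins C5b with C6, C7, C8 and several copies of C9 into a membrane attack complex, a pore in the target membrane. Regulators in plasma and on host cells stop the cascade on the body's own surfaces. In liver, C1q is made mostly by Kupffer cells, the resident macrophages, and properdin mostly by myeloid cells, while factor D is best known as an adipocyte product.

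Library totals lay between 24690871 and 46949361 counts. The hepatocyte list of 10 markers summed to between 58719 and 101328 CPM (counts scaled to library size by TMM), as the label of liver would have it. Transcripts of both sexes were found in 3 of the 2-week libraries (asparaginase replicate 3, PBS replicates 1 and 2), where Xist stood at 279, 263 and 361 CPM beside Y-linked sums of 57, 52.4 and 57.3 CPM. Asparaginase replicates 1 and 2 of 8 weeks held 911 and 495 CPM of squamous epithelium markers, against at most 100 CPM in any other library. Pancreatic acinar markers summed to 1167, 1698 and 592 CPM with asparaginase and 153, 177 and 72.3 CPM with PBS at 2 weeks. At 8 weeks the sums were 179, 1.65 and 10.8 CPM against 1.47, 0.464 and 1.07 CPM. At 16 weeks they overlapped, at 334, 1.91 and 4082 CPM against 1.65, 549 and 630 CPM. All 10 acinar markers lay above 0 in the mean effect, with a median of 4.45 and none called. The part of acinar RNA in the complement values was not tested. Skeletal muscle markers reached 2188 CPM in asparaginase replicate 1 of 8 weeks. In the mean effect of asparaginase over the ages, 2 of 10 hepatocyte markers fell, 1 of 12 Kupffer cell markers rose and 2 fell, and 1 of 4 erythroid markers tested fell; the other 10 marker lists had no gene past the threshold. Calls lost without the mixed or the squamous libraries are named with the comparison they belong to.

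Per length of message the complement genes spanned more than 4 orders of magnitude. C3, the protein on which all pathways converge, led with a median of 1134 CPM per kb of exons over the 18 libraries. Vtn (vitronectin, which blocks insertion of the terminal complex) followed at 612 CPM per kb, then Cfhr2 of the factor H related family at 240 CPM per kb, Mbl2 (a mannose-binding lectin) at 205 CPM per kb and Cfi (factor I, the protease that inactivates C3b and C4b) at 197 CPM per kb. Serping1 (C1 inhibitor) at 187 CPM per kb and Clu (clusterin) at 181 CPM per kb came next, so 5 of the 7 highest were soluble regulators. Neighbours in this order were not separated: the ranges of Mbl2, Cfi, Serping1 and Clu over the libraries overlap one another. The terminal genes C8g, Hc (the gene of C5), C8a, C9 and C8b lay close together, between 64.3 and 124 CPM per kb, while C6 had 6.03 and C7 0.406 CPM per kb. The lowest was Cd46, a membrane regulator that in rodents is known mainly from testis, at 0.0522 CPM per kb and between 6 and 23 raw counts per library. Counts per library were also small for Cfd (4 to 668), C7 (10 to 64) and C5ar1 (9 to 56), so that counting error alone is sizeable for these 4 genes.

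**Figure D1:**
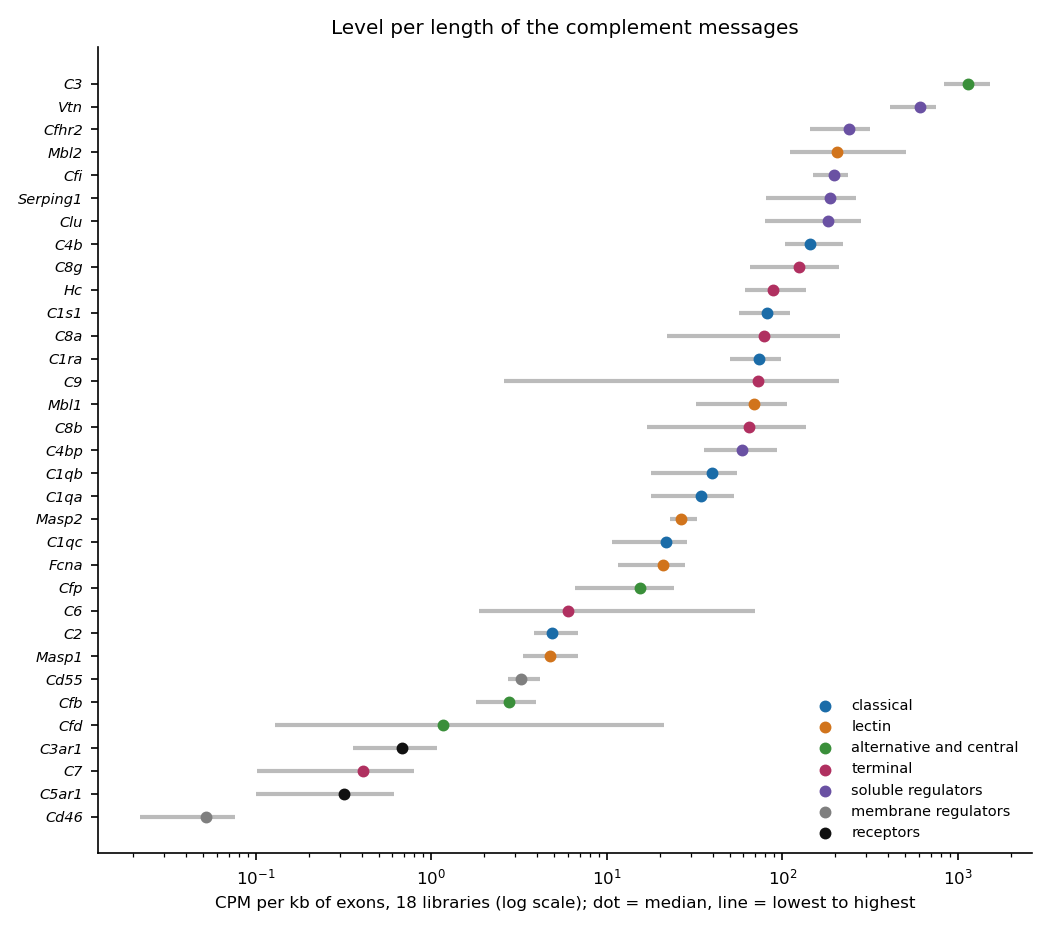
Median level of each complement gene over 18 libraries in CPM per kb of exons (log axis), with a grey line from the lowest to the highest library; colours mark the roles. C3 lies highest at 1134 CPM per kb and Cd46 lowest at 0.0522 CPM per kb, and the longest lines are those of Cfd, C9 and C6.

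Reads of some members cannot be assigned with certainty, with the counting method and its use of strand not given in the sources used here. Of the exon bases of Cfb (factor B, the protease of the alternative convertase), 79.5% lie within the read-through gene Gm20547, which also covers part of C2; overlaps took up 46.9% of the exon bases of C2, and Gm20547 itself was listed at 0 in all 18 libraries. Masp2, a protease of the lectin pathway, shares 54.9% of its exon bases with Tardbp on the other strand. C4b, C1ra, C1s1, Cfhr2 and Cd55 have near-identical copies in the mouse genome (C4a, C1rb, C1s2, other Cfhr genes and Cd55b), and reads may have been split between them or lost.

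With asparaginase, C9 and Mbl1 fell, and most other members had values slightly below 0 that did not pass the test. C9 fell at 2 weeks and in the mean effect over the ages, and Mbl1 fell in the mean effect alone. In edgeR's quasi-likelihood test with Benjamini-Hochberg adjustment over all 16213 genes, 1 of 33 members was called at 2 weeks, where 0.432% of all genes were called (0.327% higher, 0.105% lower). No member was called at 8 weeks, where 0.364% of all genes were (0.191% higher, 0.173% lower), and none at 16 weeks, where 0.234% were (0.191% higher, 0.0432% lower). In the mean effect 2 members were called, both lower, where 5.41% of all genes were (2.55% higher, 2.86% lower). At an unadjusted p under 0.05 there were 5 members at 2 weeks, 4 of them lower, 10 at 8 weeks and 5 at 16 weeks, all lower with asparaginase. Over the 16213 genes the numbers were 2043 at 2 weeks (967 lower), 2989 at 8 weeks (1430 lower) and 1842 at 16 weeks (864 lower). At 8 weeks DESeq2 called 6 members (C1qa, C1qb, C6, C9, Fcna and Mbl1), all lower, where it called 4.06% of all genes. There limma-voom called 0 members and 0.327% of all genes. At 16 weeks both called 0 members, where DESeq2 called 1.99% of all genes and limma-voom 0.234%. The median log2 fold change of the 33 members was -0.13 at 2 weeks, -0.31 at 8 weeks, -0.09 at 16 weeks and -0.21 for the mean effect, where the median over all genes tested was -0.01, 0.01, 0.00 and 0.00. Values below 0 were found for 26, 29 and 24 members at 2, 8 and 16 weeks and for 30 members in the mean effect, in which 49.1% of all genes lay below 0. The hepatocyte markers moved with them: 8 of 10 lay below 0 in the mean effect, with a median of -0.23. Their sums were 58719, 92250 and 76804 CPM with asparaginase and 93887, 92052 and 101328 CPM with PBS at 2 weeks, 84450, 66972 and 74531 CPM with asparaginase and 100969, 73924 and 88525 CPM with PBS at 8 weeks, and 62637, 62084 and 81327 CPM with asparaginase and 96425, 82776 and 78917 CPM with PBS at 16 weeks. Alb (albumin) alone made up most of each sum. At 2 weeks it stood at 36492, 66064 and 54266 CPM with asparaginase and 72634, 68442 and 76356 CPM with PBS. At that age 7 of 10 hepatocyte markers lay below 0, with a median of -0.07. The part of hepatocyte content in the complement values was not tested. For a difference of the effect between the ages, the joint test called 0 members and 0% of all genes. In it 6 members and 1529 of 16213 genes had an unadjusted p under 0.05. DESeq2 called 0 members as well, where it called 0.956% of all genes.

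**Figure D2:**
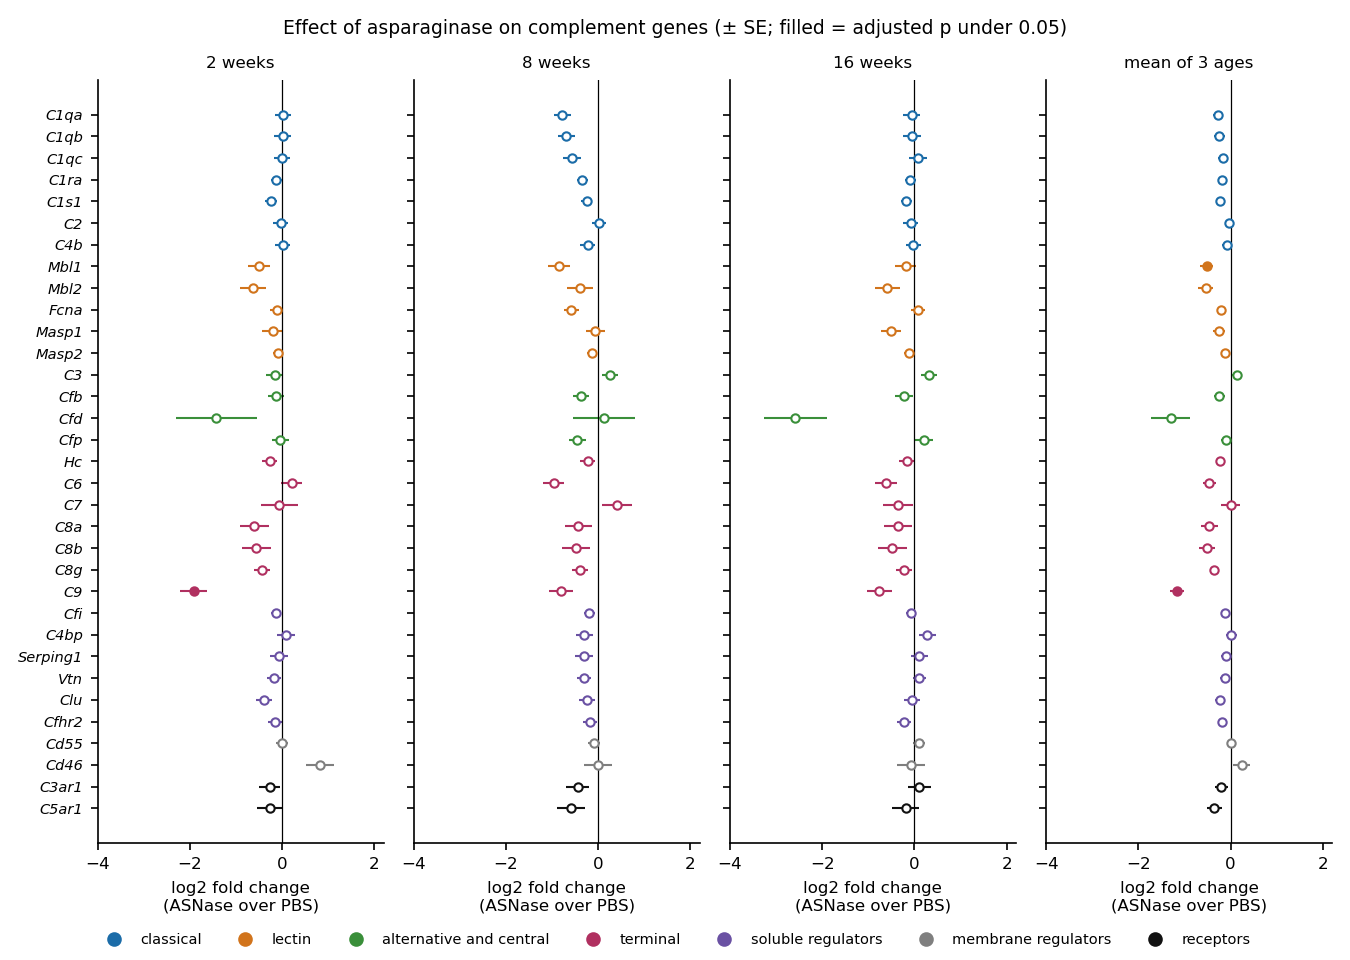
Log2 fold change of asparaginase over PBS (x axis, ± SE from edgeR) for the 33 complement genes (y axis, by role) at 2, 8 and 16 weeks and as the mean of the 3 ages; filled points passed an adjusted p of 0.05 and colours mark the roles. C9 at 2 weeks (-1.92) and C9 and Mbl1 in the mean (-1.16 and -0.52) are filled, and most other points lie a little left of 0.

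Terminal pathway genes had medians of -0.43, -0.43 and -0.36 at 2, 8 and 16 weeks and -0.46 for the mean effect, beside -0.52 for the 2 receptors at 8 weeks, and 1 of 7 called at 2 weeks and in the mean. C9 (chromosome 15, 6445327 to 6498751, GRCm38) encodes the subunit that polymerises into the wall of the pore. At 2 weeks it stood at 6.61, 15.4 and 12.9 CPM in the asparaginase livers, against 45.9, 33.1 and 34.5 CPM in the PBS livers. Every asparaginase library lay well below every PBS library. The means were 11.6 ± 4.53 CPM with asparaginase and 37.8 ± 7.03 CPM with PBS (SD, n = 3 each). The difference was -1.92 on the log2 scale (SE 0.30, edgeR adjusted p = 0.017). The value was -1.29 without asparaginase replicate 1 (adjusted p = 1) and -1.96 without PBS replicate 2 (adjusted p = 0.0544), and the call was lost there, without a sex term (-1.70, adjusted p = 0.228) and without the 3 mixed libraries (-1.66, adjusted p = 0.568). Asparaginase replicate 1 is also the library with the lowest hepatocyte sum, 58719 CPM, of which 36492 CPM was Alb (albumin). Alb and Ttr lay below every PBS liver of 2 weeks in all 3 asparaginase livers of that age, and Trf and F9 did so in replicate 1 alone. In replicate 1 Apoa1, Hnf4a, Cps1, Tat, Serpina1c and Apob lay within or above the PBS range. The part of this library in the result was not tested beyond leaving it out.

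In adults C9 was several times more abundant and also differed by sex, so the values are best read within a sex. At 8 weeks the asparaginase males had 279 and 188 CPM and the PBS male 458 CPM, and the asparaginase female had 123 CPM and the PBS females 184 and 204 CPM. At 16 weeks the asparaginase males had 367 and 375 CPM, against 535 CPM in the PBS male. The asparaginase female of that age had 128 CPM, against 205 and 301 CPM in the PBS females. C9 was lower with asparaginase in all 8 pairs of adult libraries that share age and labelled sex. The log2 fold changes were -0.81 (SE 0.26, adjusted p = 0.138) at 8 weeks and -0.76 (SE 0.27, adjusted p = 0.319) at 16 weeks. The mean effect over the ages was -1.16 (SE 0.16, adjusted p = 0.00246), it held without any single library (-1.38 to -0.94), and without the sex term it was -0.83 (adjusted p = 0.107).

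C6, C8a, C8g, C1s1 and Cfhr2 were likewise lower in all 8 adult pairs. With C9 these are 6 of 33 members, where 6.33% of all genes showed that order, and no member was higher in all 8 (4.68% of all genes). C8g and C9 were also lower without overlap at 2 weeks, as 1.42% of all genes were; none was higher in both (1.09%). C6, which binds C5b in the first step of pore assembly, had 121 and 79 CPM in asparaginase males of 8 weeks, against 177 CPM in the PBS male. In females of that age it had 9.78 CPM with asparaginase and 19 and 23.9 CPM with PBS. At 16 weeks C6 stood at 214 and 197 CPM in asparaginase males against 248 CPM in the PBS male, and at 15.7 CPM in the asparaginase female against 31.1 CPM in each PBS female. Each asparaginase female thus lay below both PBS females of its age, and the males lay closer together at 16 weeks. The C6 log2 fold change was -0.97 (SE 0.23, adjusted p = 0.0673) at 8 weeks and -0.62 (SE 0.24, adjusted p = 0.355) at 16 weeks, and 0.21 (SE 0.23) at 2 weeks. Without the sex term the 16-week value of C6 was 0.46, of the opposite sign; 2 of 3 asparaginase mice and 1 of 3 PBS mice were male.

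C8 is built from alpha and beta chains, which belong to the pore-forming family, and a small gamma chain of the lipocalin family. C8g, the gamma chain, had 97.8, 104 and 112 CPM in 2-week asparaginase livers, against 162, 129 and 133 CPM in PBS livers. The groups did not overlap at that age, as for C9. These genes were the only 2 members lower without overlap at 2 weeks, where 8.64% of all genes were, and none was higher (8.09%). The C8g log2 fold change was -0.43 (SE 0.17, adjusted p = 0.307) there and -0.35 (SE 0.10, adjusted p = 0.0603) in the mean effect. C8a averaged -0.46 (SE 0.18, adjusted p = 0.148) and C8b -0.51 (SE 0.18, adjusted p = 0.126) over the ages. Hc, whose product C5 gives rise to the peptide C5a and to C5b, had a mean log2 fold change of -0.22 (SE 0.10, adjusted p = 0.199). C7 was the terminal gene with the smallest difference in the mean effect (-0.00, SE 0.20). At 8 weeks C7 had 1.48, 1.25 and 1.67 CPM with asparaginase and 0.797, 1.19 and 1.25 CPM with PBS, the only member higher without overlap at that age (7.29% of all genes); its log2 fold change was 0.41 (SE 0.32, adjusted p = 0.523).

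**Figure D3:**
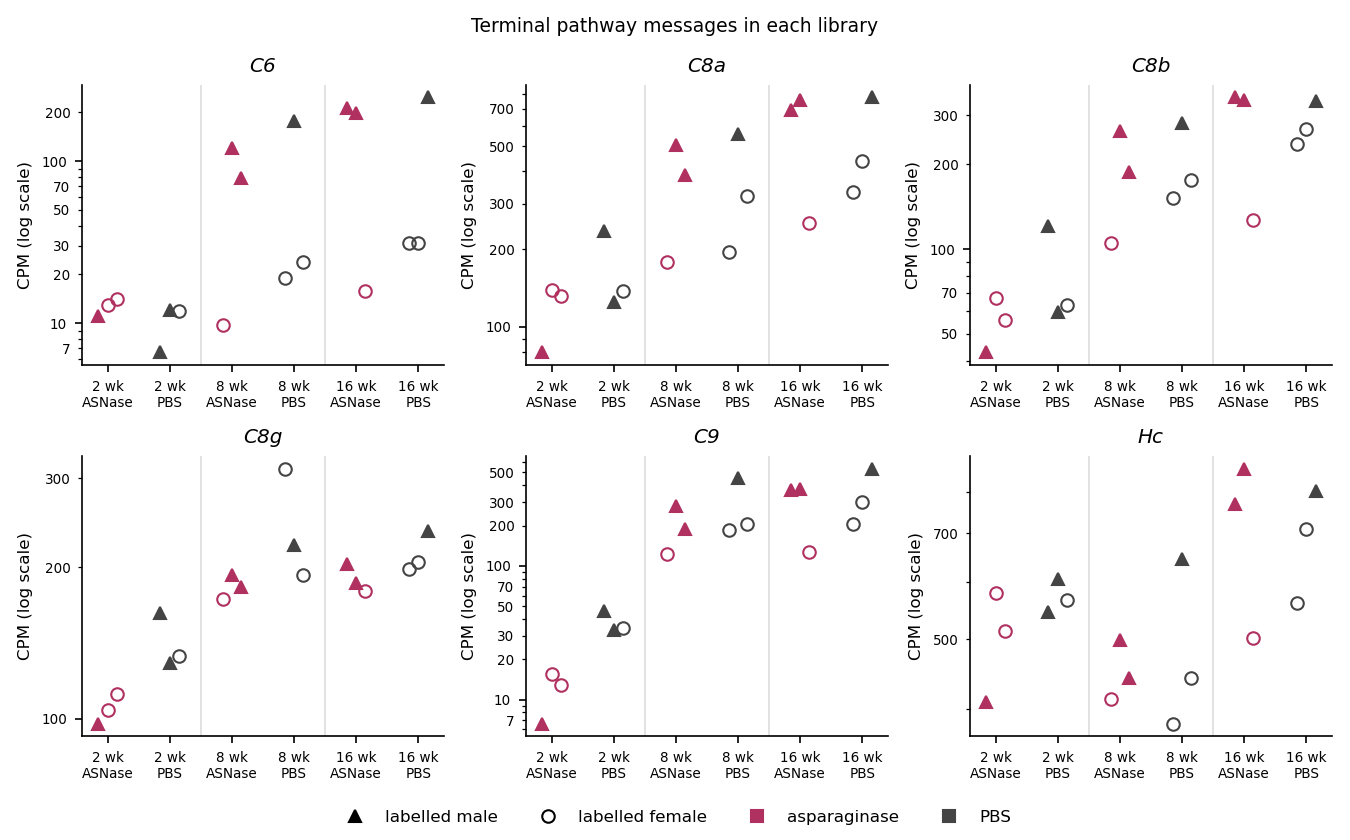
CPM (log axis) of 6 terminal pathway genes in each library, by age and treatment; red marks asparaginase, grey PBS, triangles labelled males and open circles labelled females. C9 is lower in each of the 3 asparaginase livers than in each of the 3 PBS livers at 2 weeks, and in adults the C6 values of males (79 to 248 CPM) lie above those of females (9.78 to 31.1 CPM).

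The 250 bases before the RefSeq transcription start of 4 terminal genes that differed by both age and sex are shown for reference, on GRCm38.p6. Positions are counted from that start. In GENCODE M21 the genes C9 (6445327) and C6 (4727175) start within the printed bases, so the last of these are transcribed by that annotation. Windows of 300 bases (250 before and 50 after the start) were searched on both strands for STAT (TTCNNNGAA), C/EBP (TTGCNNAA), a run of letters that forms part of an HNF1 site (GTTAAT, hereafter the partial HNF1 motif), the C/EBP-ATF response element (TGATGNAAT) and the TATA box (TATAAA). The C/EBP and C/EBP-ATF motifs can share letters; capitals mark the matches. C9 (chr15:6445096-6445345, plus strand) held 1 C/EBP match at position -132, C8a (chr4:104876399-104876648, minus strand) a STAT match at -228 and a partial HNF1 motif at -107, C8b (chr4:104766067-104766316, plus strand) a partial HNF1 motif on the other strand at -206, and C6 (chr15:4726960-4727209, plus strand) none of the 5.
C9: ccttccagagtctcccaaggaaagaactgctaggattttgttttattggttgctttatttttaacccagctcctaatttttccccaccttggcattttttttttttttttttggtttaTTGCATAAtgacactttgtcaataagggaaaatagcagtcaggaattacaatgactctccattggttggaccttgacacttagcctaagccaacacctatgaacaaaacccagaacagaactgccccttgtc
C8a: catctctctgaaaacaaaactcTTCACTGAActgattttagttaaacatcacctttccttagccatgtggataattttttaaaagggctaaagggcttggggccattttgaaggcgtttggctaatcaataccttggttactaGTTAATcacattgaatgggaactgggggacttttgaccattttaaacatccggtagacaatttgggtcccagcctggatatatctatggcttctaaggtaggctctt
C8b: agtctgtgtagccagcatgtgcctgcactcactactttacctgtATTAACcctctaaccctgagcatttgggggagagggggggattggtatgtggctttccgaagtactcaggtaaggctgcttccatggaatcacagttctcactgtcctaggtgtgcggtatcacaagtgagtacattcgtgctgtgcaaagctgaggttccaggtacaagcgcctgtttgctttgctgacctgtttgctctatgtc
C6: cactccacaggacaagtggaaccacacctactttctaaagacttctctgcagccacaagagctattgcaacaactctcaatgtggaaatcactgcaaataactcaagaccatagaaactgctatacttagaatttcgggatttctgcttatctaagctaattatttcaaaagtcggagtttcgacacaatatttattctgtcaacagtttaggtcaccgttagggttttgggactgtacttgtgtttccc

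Over all 32851 windows, 8.3% held the STAT letters, 10.8% C/EBP, 7.1% the partial HNF1 motif, 0.965% the C/EBP-ATF element and 13.6% the TATA box. In the table, 25 members had 27 windows, of which 6 held STAT, 4 C/EBP, 10 the partial HNF1 motif, 0 the C/EBP-ATF element and 5 the TATA box. A match is a description of letters and not evidence of binding.

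Classical pathway genes did not pass the test for asparaginase at any age, with medians of 0.00, -0.35 and -0.06 at 2, 8 and 16 weeks. C1qa, C1qb and C1qc, neighbours on chromosome 4 that encode the chains of C1q, together had 77, 62 and 58.7 CPM in 8-week asparaginase livers, against 167, 80.8 and 127 CPM in PBS livers. At 16 weeks the sum was 98, 133 and 110 CPM with asparaginase and 131, 147 and 93.7 CPM with PBS, and the groups overlapped. The log2 fold change at 8 weeks was -0.78 (SE 0.19, adjusted p = 0.0681) for C1qa, -0.69 (SE 0.19, adjusted p = 0.0959) for C1qb and -0.57 (SE 0.19, adjusted p = 0.151) for C1qc. The 12 Kupffer cell and macrophage markers moved with them: their sum was 323, 277 and 270 CPM with asparaginase and 617, 359 and 526 CPM with PBS at 8 weeks. All 12 lay below 0 there, with a median log2 fold change of -0.55 and none called, and none of the 12 was at 0. C1q made up between 21.7% and 23.8% of that marker sum in asparaginase livers and between 22.5% and 27.1% in PBS livers of 8 weeks. At 16 weeks the share was between 18.4% and 20.7% with asparaginase and between 22.3% and 23.4% with PBS, without overlap. The marker sum of that age includes Marco, at 53.7, 71.4 and 46 CPM with asparaginase and 7.76, 15.4 and 7.74 CPM with PBS. Of the 12 markers 1 was called higher at 16 weeks and 4 lay below 0. The part of Marco in the lower share was not tested. In bulk liver, fewer cells of a type and less RNA per cell cannot be told apart.

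The remaining classical genes are made by hepatocytes. C1ra and C1s1 encode the proteases that C1q activates; C1s1 had a mean log2 fold change of -0.23 (SE 0.07, adjusted p = 0.0879) and C1ra of -0.19 (SE 0.07, adjusted p = 0.134). C4b, the component that C1s and the MASP proteases cut, had 692, 768 and 721 CPM in 8-week asparaginase livers and 808, 878 and 818 CPM in PBS livers, without overlap, but its log2 fold change was only -0.23 (SE 0.16, adjusted p = 0.467). C2, the protease partner of C4b, stayed between 14.8 and 26.4 CPM in all 18 libraries, with a mean effect of -0.03 (SE 0.09).

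Among the lectin pathway genes Mbl1 fell in the mean effect and the other 4 did not pass the test. Mbl1, one of 2 mouse mannose-binding lectins, had 50.4, 78.1 and 72 CPM in asparaginase livers and 111, 66.9 and 84.9 CPM in PBS livers at 2 weeks. At 8 weeks it had 59.5, 97.5 and 105 CPM with asparaginase and 166, 135 and 128 CPM with PBS. At 16 weeks the values overlapped again, at 139, 125 and 102 CPM with asparaginase and 128, 135 and 134 CPM with PBS. The separation was thus clean at 8 weeks alone. The mean log2 fold change of Mbl1 was -0.52 (SE 0.14, adjusted p = 0.0485), at the edge of the threshold. It held on leaving out any of the 3 PBS libraries of 2 weeks or PBS replicates 1 and 2 of 8 weeks, and was lost on leaving out any of the other 13 libraries (adjusted p up to 0.227), with values between -0.67 and -0.37. Without the 2 squamous libraries it was -0.35 (adjusted p = 0.331).

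Mbl2, the paralog of Mbl1, was listed lower by a similar amount at each age, with log2 fold changes of -0.63 (SE 0.29), -0.40 (SE 0.28) and -0.59 (SE 0.27) and a mean of -0.54 (SE 0.16, adjusted p = 0.0713). Its libraries spread widely, at 147, 146 and 252 CPM in 16-week asparaginase livers and 368, 463 and 200 CPM in PBS livers, and the lowest 3 of these 6 values include a PBS male. Fcna (ficolin A, a macrophage product in mouse) had 18, 20.8 and 16 CPM in 8-week asparaginase livers and 38.4, 21.7 and 29.9 CPM in PBS livers, a log2 fold change of -0.58 (SE 0.16, adjusted p = 0.0908), beside the lower macrophage markers given above. Masp1, a protease that activates the lectin pathway, had 43.3, 48.8 and 40.5 CPM in 16-week asparaginase livers and 60.3, 66.5 and 59.9 CPM in PBS livers. The 16-week Masp1 log2 fold change was -0.51 (SE 0.22, adjusted p = 0.417). Masp1 and Cfd were the 2 members lower without overlap at 16 weeks (9.63% of all genes), and none was higher (10.1%). Masp2, the main C4-cutting protease of the pathway, kept within 76 and 108 CPM in all libraries.

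Of the alternative pathway genes none passed the test for asparaginase. C3 was the member whose mean effect lay highest among those above 10 CPM, at 0.14 (SE 0.10, adjusted p = 0.443), with 6809, 6518 and 7788 CPM in 16-week asparaginase livers and 6601, 7442 and 4780 CPM in PBS livers. Cfb had 5.05, 6.04 and 5.14 CPM with asparaginase and 6.15, 7.05 and 7.14 CPM with PBS at 8 weeks, a log2 fold change of -0.37 (SE 0.18, adjusted p = 0.305) although the groups did not overlap. Cfp (properdin, which stabilises the convertase) had a mean effect of -0.09 (SE 0.11). Cfd (factor D, the protease that cuts factor B), which also differed by sex, had 1.09 and 0.328 CPM in 16-week asparaginase males and 4.55 CPM in the PBS male. In females of that age it had 2.48 CPM with asparaginase and 8.06 and 19.5 CPM with PBS. Its groups did not overlap at that age, and the log2 fold change of -2.58 (SE 0.69, adjusted p = 0.187) did not pass. The 8 adipocyte markers were lower in the same livers, at 17, 12.9 and 18.8 CPM with asparaginase and 23.6, 31.9 and 34.4 CPM with PBS; 7 of 7 tested lay below 0 with none called. No marker of the 8 was at 0 in all 3 libraries of either group. The part of adipose RNA in the Cfd difference was not tested.

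**Figure D4:**
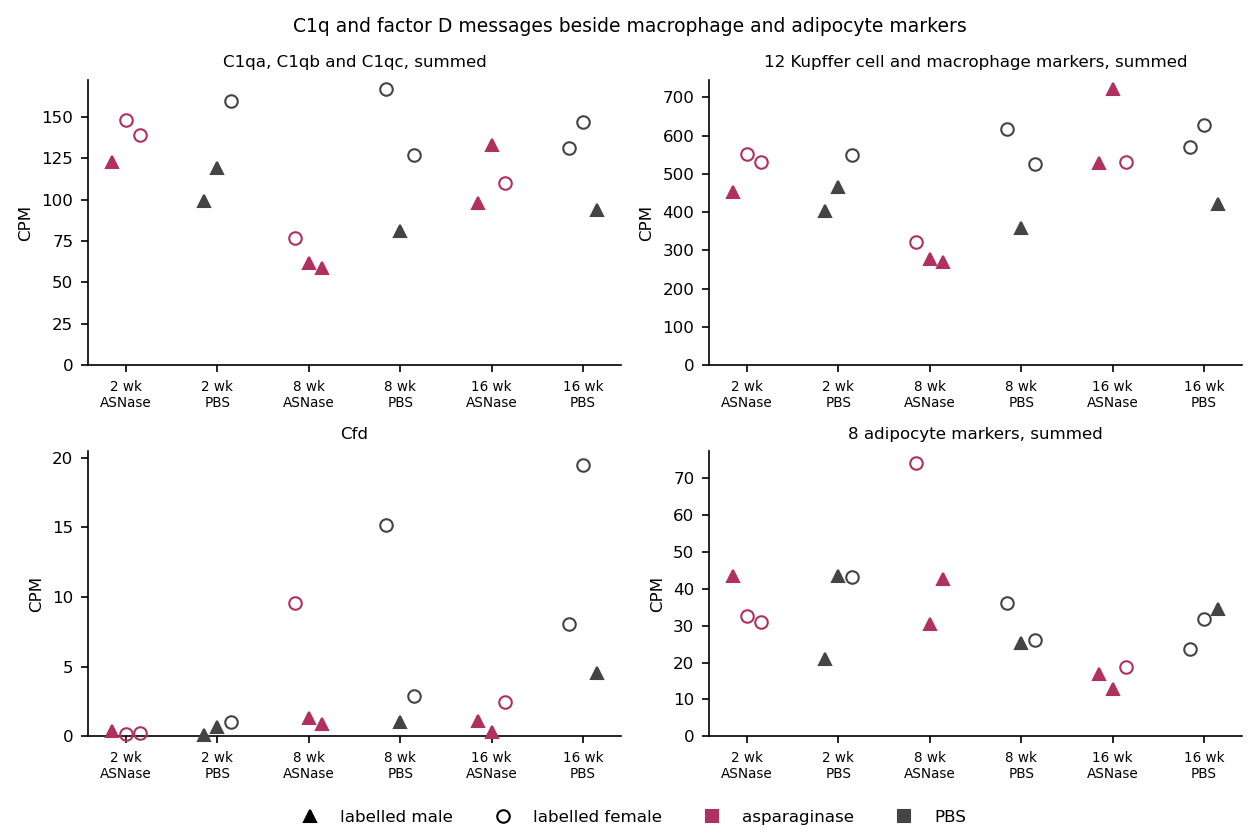
CPM in each library of the 3 C1q messages summed, of 12 Kupffer cell and macrophage markers summed, of Cfd and of 8 adipocyte markers summed, by age and treatment; symbols as in the plot of terminal genes. C1q and the macrophage markers are lower with asparaginase at 8 weeks (C1q 58.7 to 77 CPM, against 80.8 to 167 CPM with PBS), and Cfd and the adipocyte markers at 16 weeks.

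Of the 6 soluble regulators 3 were lower without overlap at 8 weeks (Cfi, Serping1 and Vtn), and none passed the test. Cfi had 371, 330 and 346 CPM with asparaginase and 447, 373 and 428 CPM with PBS. Serping1, which inhibits C1r, C1s and the MASP proteases, had 392, 400 and 410 CPM with asparaginase and 573, 462 and 488 CPM with PBS. Vtn had 1001, 1087 and 1127 CPM with asparaginase and 1486, 1243 and 1266 CPM with PBS. The log2 fold changes were -0.19 (SE 0.11, adjusted p = 0.39) for Cfi, -0.31 (SE 0.19, adjusted p = 0.404) for Serping1 and -0.31 (SE 0.15, adjusted p = 0.298) for Vtn. At 16 weeks the same 3 genes stood at -0.07, 0.11 and 0.11. C4bp (the C4b-binding protein), Clu and Cfhr2 had mean effects of 0.02 (SE 0.11), -0.23 (SE 0.10) and -0.18 (SE 0.09). In all, 10 members were lower without overlap at 8 weeks, where 8.57% of all genes were: C1qa, C1qb, C4b, Mbl1, Fcna, Cfb, Cfi, Serping1, Vtn and C5ar1.

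Membrane regulators and receptors gave small or uncertain differences. Cd55 (decay accelerating factor) stayed between 13.3 and 20.1 CPM in every library, with a mean effect of -0.00 (SE 0.07). Cd46 had 0.581, 0.367 and 0.344 CPM in 2-week asparaginase livers and 0.444, 0.298 and 0.166 CPM in PBS livers, a log2 fold change of 0.82 (SE 0.31, adjusted p = 0.28) on very few reads. The C3a receptor gene C3ar1 and the C5a receptor gene C5ar1, both known from myeloid cells, had mean effects of -0.20 (SE 0.14) and -0.35 (SE 0.17). C5ar1 at 8 weeks had 0.554, 0.256 and 0.395 CPM with asparaginase and 0.733, 0.596 and 0.699 CPM with PBS, again where macrophage markers were lower.

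With age 12 members rose at both adult ages in PBS livers, 6 of them terminal pathway genes. In these livers 13 members rose and 2 fell at 8 weeks relative to 2 weeks, where 31.7% of all genes were called (14.8% higher, 16.9% lower), and 14 rose and 1 fell at 16 weeks relative to 2 weeks, where 27.8% were (13.2% higher, 14.5% lower). Both comparisons share the 2-week PBS libraries. The share of all genes that rose in both was not counted, and it can be at most 13.2%. At 16 against 8 weeks edgeR called 0 members (0.413% of all genes, 0.179% higher and 0.234% lower), 4 members and 2493 of 16213 genes had an unadjusted p under 0.05, and DESeq2 called 1 member, Hc, and 3.68% of all genes. Of the terminal genes 6 of 7 rose in both comparisons, with a median log2 fold change of 1.43 at 8 weeks and 1.95 at 16 weeks, where the median over all genes was -0.01 in both.

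C9 in PBS livers stood at 45.9, 33.1 and 34.5 CPM at 2 weeks, 184, 458 and 204 CPM at 8 weeks and 205, 301 and 535 CPM at 16 weeks, without overlap between 2 weeks and the later ages. Its log2 fold change was 2.86 (SE 0.28, adjusted p = 4.5e-05) at 8 weeks and 3.23 (SE 0.29, adjusted p = 1.59e-05) at 16 weeks relative to 2 weeks. C6 stood at 6.61, 12 and 11.9 CPM at 2 weeks, 19, 177 and 23.9 CPM at 8 weeks and 31.1, 31.1 and 248 CPM at 16 weeks. The C6 log2 fold change, which refers to an even mix of the sexes, was 2.58 (SE 0.24, adjusted p = 2.82e-05) and 3.13 (SE 0.24, adjusted p = 4.49e-06). Without the sex term these were 2.85 (adjusted p = 0.0827) and 3.34 (adjusted p = 0.054). C7 rose by 1.61 and 2.00, C8b by 1.43 and 1.95, C8a by 1.17 and 1.72 and C8g by 0.77 and 0.62 on the log2 scale at 8 and 16 weeks. Hc, the remaining terminal gene, had 0.31 (SE 0.16, adjusted p = 0.167) at 16 weeks.

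Outside the terminal pathway, Serping1 rose by 1.10 (SE 0.19, adjusted p = 0.00114) at 8 weeks and by 1.19 (SE 0.19, adjusted p = 0.000668) at 16 weeks, with 308, 198 and 197 CPM at 2 weeks, 573, 462 and 488 CPM at 8 weeks and 496, 587 and 511 CPM at 16 weeks. C1ra, C4bp, Clu and Cfhr2 rose in both comparisons by 0.35 to 0.58 at 8 weeks and by 0.49 to 0.74 at 16 weeks. At 8 weeks the call of C4bp was lost on leaving out any of 16 of the 18 libraries and that of C1ra on leaving out any of 13. Mbl1 rose at 8 weeks (0.72), and C4b (0.58) and Masp2 (0.30) rose at 16 weeks. Cfd rose by 2.27 (SE 0.72) and 3.64 (SE 0.71); it had 0.118, 0.651 and 1.05 CPM at 2 weeks, 15.2, 0.994 and 2.87 CPM at 8 weeks and 8.06, 19.5 and 4.55 CPM at 16 weeks. Leaving out 1 library moved the 8-week value of Cfd between 1.41 and 3.39, and the call was lost in 5 of 18 cases, without PBS replicate 1, 2 or 3 of 2 weeks or replicate 1 or 2 of 8 weeks, and with limma-voom. The adipocyte marker Adipoq (adiponectin) had 0.0296, 0.325 and 0.333 CPM at 2 weeks, 2.23, 0.232 and 0.949 CPM at 8 weeks and 1.05, 2.83 and 1.3 CPM at 16 weeks in the same livers. All 8 adipocyte markers together had 21, 43.5 and 43.1 CPM at 2 weeks, 36.1, 25.3 and 26 CPM at 8 weeks and 23.6, 31.9 and 34.4 CPM at 16 weeks. Most of that sum was Fabp4 and Plin4 in each of these livers. Fabp4 had 14.4, 24.1 and 28.5 CPM at 2 weeks and 8.48, 14.8 and 13.4 CPM at 16 weeks. Plin1 had 0, 0.0814 and 0.25 CPM at 2 weeks and 0.509, 0.788 and 0.945 CPM at 16 weeks. The part of the adipocyte markers in the Cfd values was not tested. Cfp fell in both comparisons, by 0.62 and 0.53, and C5ar1 fell at 8 weeks by 1.10. C3 itself had -0.28 (SE 0.17) at 8 weeks and -0.01 (SE 0.17) at 16 weeks, so the most abundant member showed no difference that passed. Without PBS replicate 3 of 2 weeks, the sole unmixed one, 4 members were called at 8 weeks (13.7% of all genes) and 7 at 16 weeks (11.5%), and without PBS replicate 2 of 2 weeks 8 were called at 8 weeks (20.3%). Without the 3 mixed libraries 11 were called at 8 weeks (18.9% of all genes) and 10 at 16 weeks (17.9%). Calls lost there were, at 8 weeks, C1ra (0.43, adjusted p = 0.0911), Mbl1 (0.80, 0.0894), Cfd (1.48, 0.29), Clu (0.56, 0.184) and C5ar1 (-1.11, 0.066). At 16 weeks they were C4b (0.60, adjusted p = 0.155), Masp2 (0.39, 0.0871), Cfd (2.89, 0.0608), C8g (0.70, 0.0517) and Clu (0.73, 0.0977). The 2 squamous libraries enter these comparisons through the shared spread, the filter, the scaling and, at 8 weeks, the sex term. Without them C1ra, Cfd, C4bp and Clu at 8 weeks and Masp2 and Cfp at 16 weeks missed the threshold. Their adjusted p-values lay between 0.0503 and 0.0835. C6, C9 and Serping1 passed at both ages without any single library.

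Between adult males and females, 5 of 7 terminal pathway genes and 3 of 4 alternative pathway genes passed the test. Over 8 and 16 weeks, 7 members were higher and 6 lower in males than in females, where 12.9% of all genes were called, 4.87% higher and 8.02% lower. All 5 sex-different terminal genes were higher in males, and lower in males were genes of the other arms. Female laboratory mice are known to have weaker terminal complement activity in serum than males. CPM values by sex pool both treatments here, with more asparaginase than PBS mice among adult males and fewer among adult females. The fold changes come from the fit with a term for each group. C6 had 79 CPM in the lowest, a median of 187 CPM and 248 CPM in the highest of 6 males, and 9.78, 21.4 and 31.1 CPM in 6 females. It was the only member whose sexes did not overlap (1.95% of all genes, males higher; 0 members and 2.22% of all genes, males lower), and its log2 fold change was 3.27 (SE 0.17, adjusted p = 6.86e-07). At 2 weeks the C6 values of all 6 libraries lay between 6.61 and 14.2 CPM, whatever the label; 3 of those libraries held RNA of both sexes.

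C8a had 386, 624 and 775 CPM (lowest, median, highest) in adult males and 178, 287 and 440 CPM in adult females, a log2 fold change of 1.24 (SE 0.22, adjusted p = 0.00369). C9 had 188, 371 and 535 CPM in males and 123, 194 and 301 CPM in females, a log2 fold change of 1.19 (SE 0.19, adjusted p = 0.00219). C8b had 188, 309 and 347 CPM in males and 105, 164 and 267 CPM in females, a log2 fold change of 0.93 (SE 0.22, adjusted p = 0.0185). Hc was higher in males by 0.47 (SE 0.12, adjusted p = 0.022), with medians of 707 CPM in males and 472 CPM in females. C7 (0.41, SE 0.23, adjusted p = 0.248) and C8g (0.07, SE 0.12, adjusted p = 0.744) did not pass. The sexes overlapped for each of these genes except C6. C1s1 and C1ra were also higher in males, by 0.37 (SE 0.09, adjusted p = 0.0192) and 0.31 (SE 0.08, adjusted p = 0.0346).

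Lower in males were Cfd, Mbl2, Cfp, C1qb, C3 and Fcna. Cfd had 0.328, 1.04 and 4.55 CPM in males and 2.48, 8.81 and 19.5 CPM in females, a log2 fold change of -2.41 (SE 0.49, adjusted p = 0.00865). Mbl2 had 146, 194 and 256 CPM in males and 252, 370 and 554 CPM in females, a log2 fold change of -0.79 (SE 0.19, adjusted p = 0.0211), so its sexes barely overlapped. Cfp differed by -0.63 (SE 0.14, adjusted p = 0.0123) and C1qb by -0.47 (SE 0.14, adjusted p = 0.0426). C3 differed by -0.42 (SE 0.12, adjusted p = 0.0402) and Fcna by -0.36 (SE 0.11, adjusted p = 0.0478), near the threshold. C3 had 4296, 5188 and 6809 CPM in males and 5420, 6849 and 7788 CPM in females. Beside these, 11 of 12 macrophage markers lay below 0 in males, with a median of -0.34 and none called, and 3 of 7 adipocyte markers tested were lower; the part of these cells was not tested. The count of 13 was 4 without PBS replicate 3 of 16 weeks (3.26% of all genes called), 5 without PBS replicate 2 of 8 weeks (8.61%), 6 without asparaginase replicate 1 of 8 weeks (3.8%), 6 without asparaginase replicate 3 of 16 weeks (5.22%) and 5 without the 2 squamous libraries (3.09%). Calls lost without the squamous libraries were C8b (0.85, adjusted p = 0.118), Hc (0.58, 0.0517), C1s1 (0.36, 0.117), C1ra (0.25, 0.225), Mbl2 (-0.93, 0.0633), C3 (-0.38, 0.205), Cfd (-2.43, 0.0913) and C1qb (-0.59, 0.0891). Without the 3 mixed libraries those of C1qb (-0.45, adjusted p = 0.0634) and Fcna (-0.35, 0.11) were lost. The call was lost on leaving out any of 14 of the 18 libraries for Fcna, 11 for C1qb, 11 for C3 and 10 for C1ra. For C1s1 and Mbl2 it was lost in 4 cases each, for Cfd and Hc in 3 and for Cfp and C8b in 2. C6, C8a and C9 passed without any single library.

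**Figure D5:**
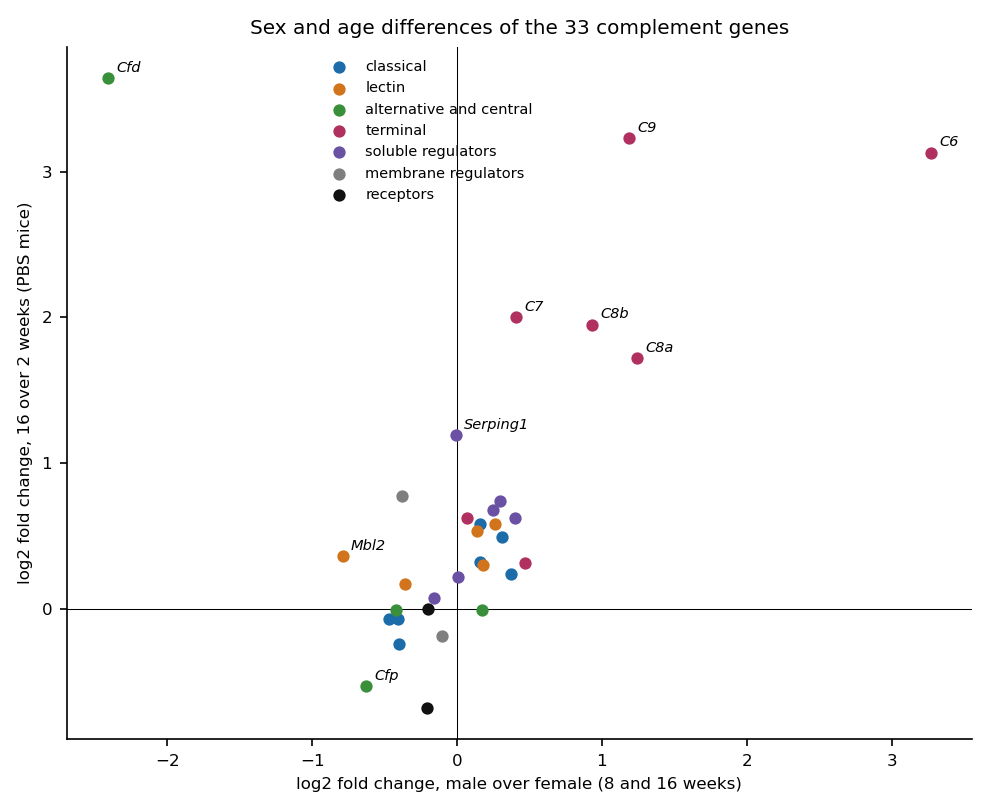
Log2 fold change of males over females at 8 and 16 weeks (x axis) and of 16 over 2 weeks in PBS livers (y axis) for the 33 complement genes, coloured by role. C6 lies at the upper right (3.27, 3.13), C9, C8a and C8b follow in the same quadrant, and Cfd lies at the upper left (-2.41, 3.64).

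Of 30 further genes of the pathway 28 were matched and 27 tested. In the mean effect of asparaginase 1 of 27 rose and 2 fell, where 5.41% of all genes were called (2.55% higher, 2.86% lower). Of these genes Apcs is also on the acute phase list and Vsig4 on the Kupffer cell list, so they are counted there again. Apcs (serum amyloid P, a pentraxin that binds C1q) rose by 1.13 (SE 0.25, adjusted p = 0.0235); it stood at 245, 157 and 189 CPM in 16-week asparaginase livers and at 80.3, 96.1 and 31.4 CPM in PBS livers, without overlap. Calr (calreticulin, an endoplasmic reticulum chaperone that also binds C1q) fell by 0.59 (SE 0.12, adjusted p = 0.0186), and Vsig4 (a complement receptor of Kupffer cells) fell by 0.39 (SE 0.10, adjusted p = 0.0455). In males Susd4, a membrane regulator, was higher by 2.41 (SE 0.21, adjusted p = 2.2e-05), C4a by 0.68 and C1s2 by 0.37, and Cr2, Cd93, Itgb2, Itgax and Colec11 were lower. Of all genes 4.87% were higher and 8.02% lower in males. Susd4 also rose with age in PBS livers, by 3.39 at 8 weeks and 3.04 at 16 weeks. At 8 weeks 6 of 27 rose and 6 fell, where 14.8% of all genes rose and 16.9% fell. At 16 weeks 6 rose and 4 fell, where 13.2% of all genes rose and 14.5% fell.

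Acute phase genes, the liver proteins that inflammation raises, lay above 0 in 22 of 26 cases at 16 weeks, when most complement genes lay below 0. At 16 weeks 13 of 26 had an unadjusted p under 0.05, none of them lower, beside 1842 of 16213 genes (864 lower), and 2 rose, Serpina3n by 1.37 (SE 0.15, adjusted p = 0.0014) and Itih4 by 0.89 (SE 0.14, adjusted p = 0.0188). Their median log2 fold change was 0.53, beside -0.09 for the complement genes. At 2 and 8 weeks 1 of 26 rose at each age (Hamp by 4.81, Il1rn by 1.59), with medians of 0.06 and -0.08. Of all genes 0.327%, 0.191% and 0.191% rose at 2, 8 and 16 weeks. In the mean effect 5 of 26 rose, Apcs among them, and none fell, where 2.55% of all genes rose and 2.86% fell. Il1rn at 8 weeks had 12.8, 1.4 and 1.69 CPM with asparaginase and 3.35, 0.828 and 3.17 CPM with PBS. Its high value is that of the library with 911 CPM of squamous markers.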

How the data were processed

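The deposited table holds whole-number counts for 37315 genes in 18 libraries, made by the authors. The submitters' processing notes name TopHat, TopHat2 (2.0.9), DESeq2 and the builds GRCm38 and mm10 but not how each was used, with the counter, annotation and strand setting not given in the sources used here. Totals of 24690871 to 46949361 set the precision of low genes. Symbols and positions came by identifier from GENCODE release M21, which matched 35449 identifiers; promoter sequences came from RefSeq.

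Genes were kept with filterByExpr (minimum count 10, minimum total 15) and scaled by TMM, and edgeR 4.0.16 (R 4.3.3) fitted a quasi-likelihood model across the 18 libraries, with group terms and labelled sex within each age (male 0.5, female -0.5). Benjamini-Hochberg adjustment covered the 16213 genes tested; a gene rose or fell at an adjusted p under 0.05. Unless another tool is named, adjusted p-values are from this edgeR test. Standard errors follow from each fold change and its F statistic. The fit was also run on simulated counts with the same spread for every gene and no differences by age or sex. These are simpler than the real libraries, so that run does not test the calls made here. Levels between genes were compared only per kb of exons.

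The 33 members, their roles, the further pathway and acute phase genes and the markers of 13 cell types were chosen with earlier results of these data known. Every member is accounted for; libraries are shown for members past the threshold or not overlapping, and further pathway genes are named where they passed. Alternatives were other size factors, no filter, no sex term, DESeq2 1.42.0, limma-voom 3.58.1, Mup genes left out, doubted libraries left out and each library left out.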

Additional observations from a re-analysis of the deposited data

How the results depend on the processing

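The 46 results for single genes that passed in the main fit were recomputed under 8 other settings and without each library in turn, where the setting applied. Of 1183 values, 974 kept their direction and side of the threshold, 209 kept their direction but missed it, and 0 reversed. Having been picked by passing, these results were unlikely to reverse, and many of the libraries left out lie outside the groups compared. Results that had not passed were not counted. Among them, C6 at 16 weeks changed sign without the sex term (0.46). For counts of members called, the cause of a change was not tested. The percentage in brackets is the share of all genes called under the same setting. Without the sex term they were 0 at 2 weeks (0.037%), 0 in the mean effect of asparaginase (3.26%) and 8 for 8 against 2 weeks (22%). Without the 3 mixed libraries they were 0 at 2 weeks (0%) and 1 in the mean effect (0.564%), and without the 2 squamous libraries 1 in the mean effect (0.508%) and 5 for sex (3.09%). With no filter on low counts 2 were called at 8 weeks (1.75%) and 4 in the mean effect (3.34%). DESeq2 called 6 at 8 weeks (4.06%), 9 in the mean effect (10.9%) and 1 at 16 against 8 weeks (3.68%). Leaving out 1 library gave 0 to 1 at 2 weeks (0% to 1.6%), 0 to 1 at 8 weeks (0% to 2.4%) and 0 to 0 at 16 weeks (0.0302% to 0.313%). It gave 1 to 5 in the mean effect (0.811% to 7.65%) and 0 to 0 for the difference between ages (0% to 0.0904%). For age it gave 4 to 16 at 8 against 2 weeks (13.7% to 33.7%) and 7 to 17 at 16 against 2 weeks (11.5% to 31.7%). It gave 0 to 0 at 16 against 8 weeks (0.0181% to 2.39%) and 4 to 14 for sex (3.26% to 16.3%). In the mean effect 5 were called without PBS replicate 3 of 2 weeks (5.75%). No paired analysis was possible because replicate numbers follow the order of deposition. Differences of Cd46, C7, C5ar1 and Cfd are limited by few counts.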
